A study of Mus musculus with 8 samples.

Results

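The cells described here are cultured mouse hippocampal progenitors that held much Olig2 RNA and no detected Sox9 RNA while growth factors were still in the medium. They were chosen from the deposited log2 expression values of the day 0 cells, as cells with Olig2 at 3 or more and Sox9 at 0. The gate held 835 of 9188 day 0 cells, of 30408 cells in the whole series. It took 434 of 4331 cells in the Kmt2d+/βgeo-labelled library, which was 10.0% (exact 95% binomial interval 9.14 to 11.0), and 401 of 4857 in the wild-type-labelled library, which was 8.26% (7.50 to 9.07). Within each library they were compared with the day 0 cells of the opposite profile, with Sox9 at 2 or more and Olig2 at 0, of which there were 99 and 44. These are called Sox9-high Olig2-negative cells. Olig2 and Sox9 chose the cells, so their own values are a description only.

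Olig2 and Sox9 are transcription factors of neural progenitors. Olig2 is known for specifying oligodendrocyte precursors and ventral progenitors, and it also appears in progenitors grown with fibroblast growth factor. Sox9 is known for keeping neural stem cells and for astrocyte formation, and it is present in early glial progenitors of both kinds. The 2 genes are therefore often found in the same glial progenitor, and their separation is a matter of degree.

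Cells came from the dentate gyrus, dissected at embryonic day 18 per the labels (the study's methods give another day), from matings of C57BL/6J females with Kmt2d+/βgeo males. One group carried the gene-trap allele Mll2Gt(RRt024)Byg in the heterozygous state, and the other is labelled C57BL/6J and was taken from Kmt2d+/+ littermates. All day 0 cells were kept in EGF and FGF2, and the other libraries were taken 2, 4 and 8 days after these were removed. There was 1 droplet 3′ library per genotype and day, 8 in all, so culture, embryo and genotype cannot be told apart, and cells are not replicates. Gated and comparison cells were set against each other within a library, the only other day 0 library is of the other genotype, and no test was made. Every interval covers counting error only.

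Kmt2d, the targeted histone methyltransferase gene, had a mean of 0.193 normalised counts per cell in the day 0 library labelled Kmt2d+/βgeo and 0.157 in the one labelled wild type, from 1059 and 968 unique molecular identifiers (UMIs, captured RNA molecules). Where transcripts of the trapped allele end relative to the 3′ tags is not stated, so this level does not check the labels. In the Olig2-high Sox9-negative cells it was 0.205 and 0.119. Luzp2 separated the libraries on the other days, with library means of 0.287 against 0.00824 at day 0, 1.48 against 0.0305 at day 2 and 2.62 against 0.0575 in the day 8 pair, the Kmt2d+/βgeo-labelled library first. At day 4 the means were 0.0502 and 0.0422. The day 4 Kmt2d+/βgeo-labelled library thus had the Luzp2 level of the libraries labelled wild type, its label is in doubt, and the counts and ranges over later days are given with and without day 4. The 2 day 0 libraries shared 7 cell barcodes, and 2 of these belonged to gated cells.

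UMIs of Olig2 and of Sox9 were each detected in most day 0 cells, and no cells known to lack them were at hand to measure a background of free RNA. Olig2 was above 0 in 92.0% of cells in the Kmt2d+/βgeo-labelled library and in 97.5% in the wild-type-labelled library, and Sox9 in 72.8% and 85.1%. Among cells with Olig2 at 3 or more, Sox9 was at 0 in 434 of 1297 (33.5%) in the first library and in 401 of 2502 (16.0%) in the second. Cells high in both genes, with Sox9 at 2 or more, numbered 185 (4.27%) and 909 (18.7%). The gate therefore cut a similar share from libraries that differed several-fold in cells high in both.

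**Figure D1:**
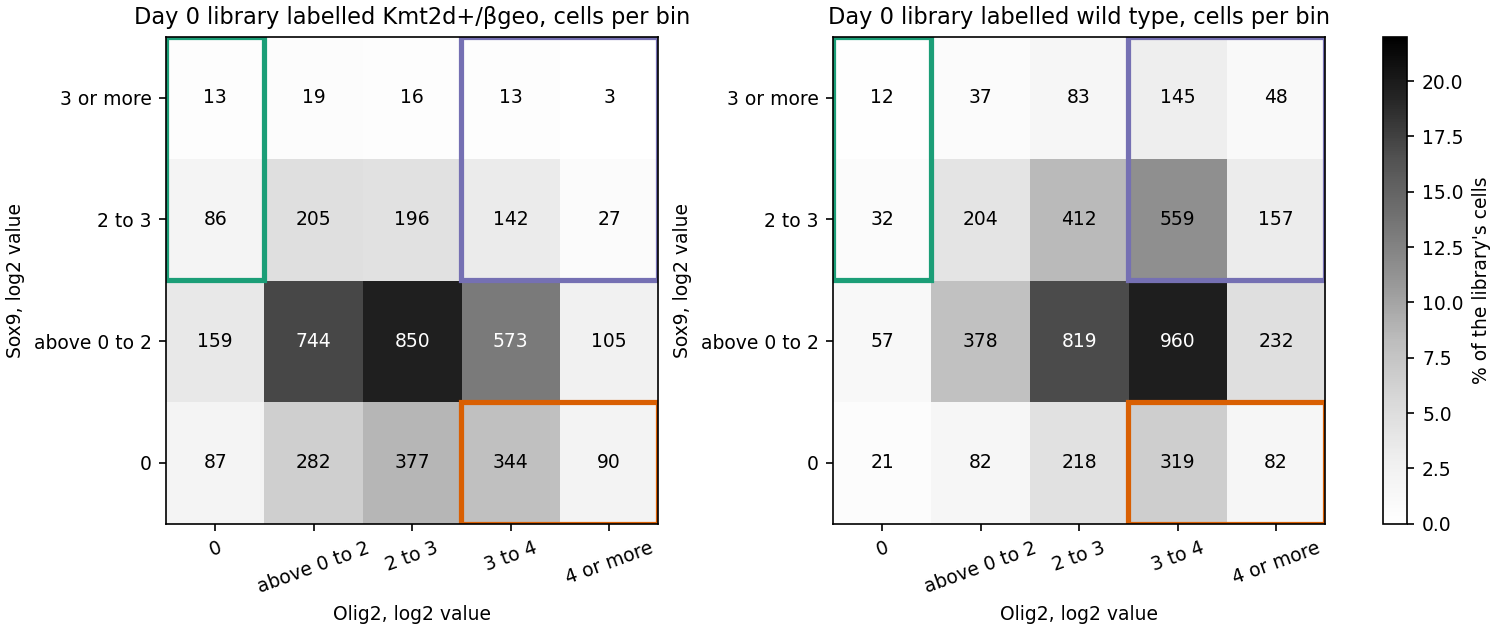
Number of day 0 cells in each bin of Olig2 (horizontal, log2 value) and Sox9 (vertical, log2 value) in the Kmt2d+/βgeo-labelled library (left) and the one labelled wild type (right), shaded by the percent of the library. The orange frame holds the 434 and 401 Olig2-high Sox9-negative cells, the green frame the 99 and 44 Sox9-high Olig2-negative cells and the purple frame the 185 and 909 cells high in both, and the gated cells border on larger bins with no gap between.

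The gated cells had a median Olig2 value of 3.57 and a highest value of 4.79 on the log2 scale in the Kmt2d+/βgeo-labelled library, and 3.62 and 5.21 in the wild-type-labelled library. This corresponded to medians of 12 and 11 Olig2 UMIs per cell, with 3 the lowest and 39 and 32 the highest. Sox9 had a median of 5 UMIs in the Sox9-high Olig2-negative cells of each library, so a Sox9 value of 0 lay only a few molecules from the comparison threshold.

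Depth moved with the gate. On the genes of the matrix, the gated cells had a median of 9308 UMIs in the Kmt2d+/βgeo-labelled library and 8018 in the wild-type-labelled library, against 11230 and 9402 over all day 0 cells. The Sox9-high Olig2-negative cells were as shallow, with 9043 and 7907. When every cell was thinned to 3000 UMIs before gating, the share in the gate was 20.03% and 21.1%. Among cells at or above the median depth of their library it was 5.54% and 5.15%. The share thus moved with depth, whereas the gated and the comparison cells of a day 0 library differed little in depth.

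Levels are given below as normalised counts, that is 2 to the power of the deposited log2 value, minus 1. They sum to 8707.1 in every cell, so 1 normalised count was 1 UMI in a cell of that depth. A gene was compared where its mean was at least 0.1 in either cell group of each day 0 library, and counted as higher or lower where the log2 ratio of the means was at least 1 in size with the same direction in both libraries. Olig2 and Sox9 were left out.

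Against Sox9-high Olig2-negative cells, 22 of 7058 genes were higher in the Olig2-high Sox9-negative cells of both libraries (0.312%) and 93 were lower (1.32%). In single libraries the shares were larger, 1.67% and 4.05% higher and 3.41% and 4.45% lower, with the Kmt2d+/βgeo-labelled library first. Of the genes past the fold in single libraries, 118 and 286 were higher and 241 and 314 lower. The comparison group in the wild-type-labelled library had only 44 cells. With counting error alone, the interval of the ratio of summed UMIs stayed on the same side of 0 in both libraries for 11 of the 22 higher and 60 of the 93 lower genes. These genes were called on ratios from the same cells, so this count and their medians, given next, are a description only. The same count over all genes compared is not given. The median log2 ratio over the 22 was 1.32 and 1.37, over the 93 it was -1.43 and -1.58, and over all genes compared it was -0.04 and -0.01. The counts depended on the scale and the gate. A difference of mean log2 values left 0 and 0 genes past 1, thinning to 3000 UMIs gave 50 and 140, of which 11 and 48 were among the 22 and 93, and comparison cells with Sox9 at 3 or more gave 77 and 349, of which 2 and 55 were. The last setting left 13 and 12 comparison cells.

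**Figure D2:**
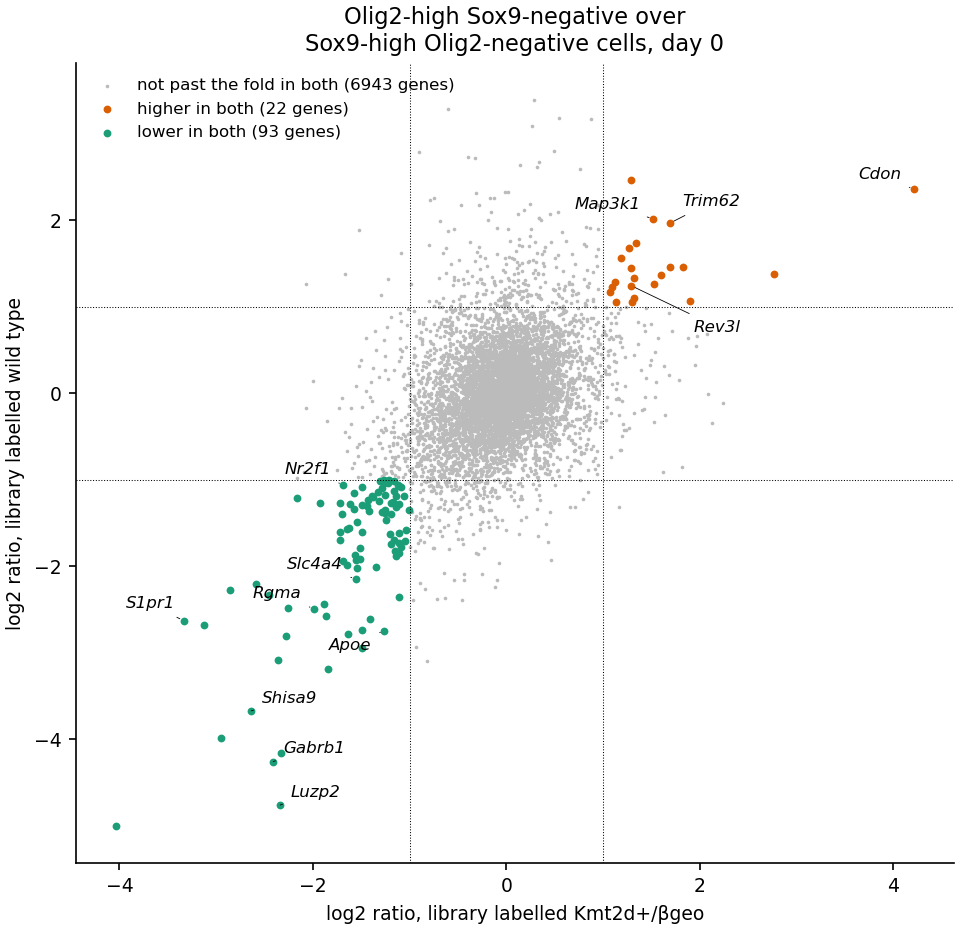
Log2 ratio of mean normalised counts in Olig2-high Sox9-negative over Sox9-high Olig2-negative cells for the genes compared, in the Kmt2d+/βgeo-labelled library (horizontal) and the one labelled wild type (vertical). The 22 genes higher in both (orange) lie beyond 1 on both axes and the 93 lower in both (green) beyond -1, while most genes lie inside the dotted lines.

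Rev3l was the most abundant of the 22 higher genes. It encodes the catalytic subunit of DNA polymerase zeta, which copies past DNA damage (ENSMUSG00000019841, GRCm38 chromosome 10, 39732118 to 39875211). Its mean in normalised counts, gated cells against comparison cells, was 4.51 against 1.84 and 5.57 against 2.35, with the Kmt2d+/βgeo-labelled library before the one labelled wild type, an order kept for all pairs of values below. The log2 ratios were 1.29 (interval 1.16 to 1.63) and 1.24 (0.93 to 1.52). The median cell had 3.70 against 1.49 and 4.66 against 2.21, and Rev3l was at 0 in 6.45% and 3.74% of gated cells against 27.3% and 15.9% of comparison cells.

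Trim62, a RING-finger ubiquitin ligase (ENSMUSG00000041000, GRCm38 chromosome 4, 128883580 to 128911328), had means of 0.618 against 0.191 and 0.839 against 0.215, with log2 ratios of 1.69 (interval 0.91 to 2.30) and 1.97 (0.93 to 2.90). Map3k1, a kinase at the head of a mitogen-activated cascade, stood at 0.546 against 0.190 and 0.451 against 0.112, with ratios of 1.52 (interval 0.84 to 2.31) and 2.01 (0.42 to 3.04). Axin2, an inhibitor of WNT signalling that is itself switched on by WNT, was at 0.218 against 0.0961 and 0.189 against 0.0642, with ratios of 1.18 (interval -0.08 to 1.80) and 1.56 (-0.12 to 3.79). All 3 genes stayed under 1 normalised count, and the comparison cells held only 12 and 3 UMIs of Axin2, whose interval included 0 in both libraries. With Sox9 at 3 or more in the comparison cells, the Map3k1 ratio of the first library turned to -0.30.

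Cdon, a hedgehog co-receptor, ranked first among the higher genes by the smaller of its ratios in the 2 libraries. Its mean was 0.169 and 0.130 in the gated cells, from 72 and 49 UMIs, while the comparison cells held 1 UMI in each library. The ratios were 4.21 (interval 1.43 to 9.27) and 2.36 (-0.15 to 7.73). Dok7, an adaptor of receptor tyrosine kinase signalling, was also low, with means of 0.137 and 0.133 in the gated cells, 1 and 3 UMIs in the comparison cells and ratios of 2.77 (interval 1.13 to 8.99) and 1.38 (-0.79 to 3.17). The day 0 ratios of both genes rest on these few molecules. Both genes, and Axin2 above, passed the filter on low means only through the gated cells, where they were high.

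A group of the higher genes act in making ribosomes. Nop2 and Dimt1 modify ribosomal RNA, Tsr1 and Lsg1 help assemble the small and the large subunit, and Pinx1 is a nucleolar protein. Tsr1 had means of 0.4997 against 0.205 and 0.506 against 0.186, with ratios of 1.29 (interval 0.74 to 2.22) and 1.45 (0.54 to 2.94). Lsg1 had 0.686 against 0.325 and 0.514 against 0.228, with ratios of 1.08 (interval 0.47 to 1.56) and 1.17 (0.30 to 2.40). A list of ribosome biogenesis factors was written after these genes were seen, so its values only describe the pattern. Of its 78 genes in the matrix, 73 could be compared, 5 were higher and 0 lower (beside 0.312% higher and 1.32% lower over all genes, with the list written for those 5), and the median log2 ratio was 0.52 and 0.50. Its ratio was above 0 in both libraries for 57 of the 73 genes (78.1%), against 27.5% of all genes compared. The summed mean of the list was 92.4 and 81.9 normalised counts in the gated cells, 89.004 and 82.1 in cells high in both, 88.4 and 77.1 in cells with neither gene, and 73.1 and 64.5 in the Sox9-high Olig2-negative cells. The comparison cells were thus the low group, and the gated cells were not set apart from the rest.

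Among the other higher genes, Slc25a25, a mitochondrial carrier of adenine nucleotides, had means of 0.800 against 0.375 and 0.719 against 0.307. Rap1gap, which switches off the small GTPase Rap1, had 0.636 against 0.171 and 0.713 against 0.341, with ratios of 1.90 (interval 1.09 to 2.51) and 1.06 (0.27 to 1.94). Draxin, a secreted axon guidance protein, stood at 0.266 against 0.110 and 0.381 against 0.119. The remaining higher genes among the first 15 were Zbed4, Gm14305, A930024E05Rik and Zbtb10, all with means under 0.5 in each group.

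Most genes of an astrocyte list had lower means in the gated cells than in the Sox9-high Olig2-negative cells, and Apoe and Slc4a4 passed the fold. Apoe, the main lipid carrier released by astrocytes (ENSMUSG00000002985, GRCm38 chromosome 7, 19696109 to 19699188), had means of 14.46 against 34.7 and 6.09 against 40.9 normalised counts, with log2 ratios of -1.26 and -2.75. The difference was widest among the highest cells. The median cell had 5.79 against 8.997 and 3.06 against 5.79, whereas the 90th percentile was 35.6 against 123 and 13.1 against 103. Some gated cells were themselves high in Apoe, up to 235 and 172.

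Slc4a4, a sodium bicarbonate cotransporter of astrocytes (ENSMUSG00000060961, GRCm38 chromosome 5, 88886486 to 89239653), had means of 1.04 against 3.05 and 1.17 against 5.21, with ratios of -1.56 (interval -1.84 to -1.43) and -2.15 (-2.13 to -1.64). For Slc4a4 in the second library and for Apoe in both, the ratio of means lay outside the interval, which was computed from summed UMIs and so weights deep cells more. Timp3, an inhibitor of matrix metalloproteinases, stood at 0.549 against 1.77 and 0.806 against 3.09. Abca1, a cholesterol exporter, stood at 0.511 against 1.69 and 0.798 against 2.42, and Agt, the angiotensin precursor, at 0.280 against 0.879 and 0.455 against 1.35.

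Of the 20 astrocyte genes of a marker list that were in the matrix, all were compared, 0 were higher, 2 were lower past the fold in both libraries (Apoe and Slc4a4, beside 1.32% called lower over all genes), and 17 had a ratio below 0 in both (85%, against 33.7% of all genes compared). The list's median log2 ratio was -0.62 in the Kmt2d+/βgeo-labelled library and -1.13 in the wild-type-labelled library. Id3, an inhibitor of basic helix-loop-helix factors, missed the fold narrowly, with means of 2.86 against 5.70 and 2.13 against 4.33. Mt3, a metallothionein of glia, had means of 9.70 against 15.7 and 9.85 against 27.2, and Cst3, a protease inhibitor, had 13.2 against 16.4 and 15.2 against 34.9. Nfib and Nfia, factors of gliogenesis, had ratios of -0.26 and 0.05 and of -0.12 and -0.09. The summed mean of the list was 72.4 in gated cells against 116 in comparison cells, and 80.6 against 184 in the wild-type-labelled library. It was 70.96 and 78.6 in cells high in both and 79.04 and 98.6 in cells with neither gene, so the Sox9-high Olig2-negative cells stood above the 3 other groups. No astrocyte gene of the list was at 0 in the gated cells.

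Radial glia genes also had mostly lower means. Of 11 in the matrix 10 were compared, 1 was lower (Hopx, a marker of dentate radial glia, beside 1.32% called lower over all genes) and 0 were higher, 8 had ratios below 0 in both libraries (80%, against 33.7% of all genes compared), and the median ratio was -0.30 and -0.48. Hopx had means of 0.245 against 0.659 and 0.237 against 0.559, with ratios of -1.43 (interval -1.86 to -0.92) and -1.24 (-1.76 to -0.34). Vim, an intermediate filament gene, was near equal at 38.05 against 36.96 and 30.9 against 33.54, and Fabp7, a fatty acid binding protein, had ratios of -0.20 and -0.39. In the gated cells 1 of the 11 radial glia genes, Sox9 itself, was at 0. The summed mean of the list, Sox9 included, was 158 and 120 in gated cells and 174 and 167 in comparison cells. It was 159 and 128 in cells high in both and 157 and 149 in cells with neither gene. The comparison cells thus had the highest sum in each library, and in the Kmt2d+/βgeo-labelled library the other groups were near level.

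The first 2 lower genes by rank were Gm14636 and 1190005I06Rik, with ratios of -4.04 and -5.01 and of -2.95 and -3.98. S1pr1, a receptor for sphingosine-1-phosphate (ENSMUSG00000045092, GRCm38 chromosome 3, 115710433 to 115715072), had means of 0.0433 against 0.438 and 0.0892 against 0.552, with ratios of -3.34 (interval -4.09 to -2.52) and -2.63 (-3.39 to -1.66). Gabrb1, a subunit of the GABA type A receptor, had 0.0334 against 0.178 and 0.0298 against 0.569, with ratios of -2.41 (interval -3.71 to -1.60) and -4.26 (-4.97 to -2.76). Slc7a11, the cystine and glutamate exchanger, had ratios of -2.36 and -3.08, and Shisa9, an accessory protein of AMPA receptors, of -2.64 and -3.67. Daam2, a formin linked to WNT signalling, had ratios of -2.25 and -2.49 and Fgd4, an activator of Cdc42, of -2.45 and -2.33. These genes were picked for their low ratios, and several passed the filter on low means only through the comparison cells.

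Rgma, a repulsive guidance molecule, stood at 0.183 against 0.726 and 0.145 against 0.817, with ratios of -1.99 (interval -2.45 to -1.49) and -2.49 (-3.12 to -1.79). Epha4, a guidance receptor, had ratios of -2.59 and -2.21. Luzp2 was lower in the gated cells as well, with ratios of -2.34 (interval -2.69 to -1.75) and -4.76 (-11.69 to -3.32), from 80 UMIs in each cell group of the first library and from 1 UMI in the gated and 8 in the comparison cells of the second. The rest of the first 15 lower genes were Il6ra, Cdh11, Pdzrn3 and Etl4, each with a mean under 0.1 in the gated cells.

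Oligodendrocyte lineage genes other than Olig2 were mixed, and 0 passed the fold in both libraries. Of 32 listed genes 9 were in the matrix, and Olig1, Sox10, Pdgfra and Cspg4 were not analysed here, so the name of these cells rests on Olig2 alone and no precursor identity was checked. Of the 8 compared, 0 passed in either direction, 5 had ratios above 0 in both libraries (62.5%, against 27.5% of all genes compared), 2 had ratios below 0 in both (25%, against 33.7%) and 1 had opposite signs. The median ratio was 0.66 and 0.67, and after thinning to 3000 UMIs it was 0.093 and 0.73. Bcas1, known from early oligodendrocytes, had means of 1.04 against 0.536 and 0.508 against 0.113, with ratios of 0.95 (interval 0.39 to 1.21) and 2.18 (0.99 to 4.26). Epn2, an endocytic adaptor, had 2.74 against 1.47 and 2.89 against 1.36, with ratios of 0.90 (interval 0.78 to 1.31) and 1.09 (0.75 to 1.54). Lhfpl3, found in oligodendrocyte precursors, was at 0.389 against 0.189 and 0.243 against 0.133. Serpine2, a secreted protease inhibitor, was far more abundant, at 26.45 against 27.1 and 31.4 against 39.8, with ratios of -0.04 and -0.34. Cnp, a myelin enzyme, had ratios of 0.54 and 0.47, Tnr, a matrix glycoprotein, of 0.77 and 2.59 (from 6 and 1 UMIs in the comparison cells), Itpr2, a calcium release channel, of -0.80 and -0.51 and Tcf7l2, a WNT effector, of -0.34 and 0.28.

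Regional and signalling lists held 1 or 2 lower genes each or 0, on small numbers of genes compared, beside 1.32% lower over all genes. Nr2f1, a nuclear receptor that patterns the cortex and hippocampus (ENSMUSG00000069171, GRCm38 chromosome 13, 78188973 to 78199757), was the only one of 9 dorsal and hippocampal genes to pass, with means of 1.02 against 3.27 and 0.916 against 1.91. Ptch1, the hedgehog receptor and a target of the pathway, and Foxp2 were lower among 6 ventral and hedgehog genes. Ptch1 had means of 0.236 against 0.541 and 0.274 against 0.659. Numbl, an inhibitor of Notch, was lower among 6 Notch genes, Fgfr2 among 15 genes of FGF and EGF signalling, and 0 of 9 BMP genes passed. Ratios were below 0 in both libraries for 7 of the 9 dorsal and 5 of the 6 ventral genes, against 33.7% of all genes. In the FGF and EGF list 8 of the 15 genes were below 0 in both libraries and 4 above (26.7%, against 27.5% of all genes), and the median was -0.05 and -0.11. Among the 4 above 0 in both, Egfr, the receptor for the EGF in the medium, had ratios of 0.65 and 0.69. Etv5, a target of FGF signalling, had 0.47 and 0.76, and neither gene passed the fold. Axin2 was the only higher gene among 9 of the WNT pathway and over all the fixed lists, beside 0.312% higher over all genes. As stated, Axin2 passed the filter on low means only through the gated cells. The fixed lists together had 8 genes lower. The lists of SOX factors, basic helix-loop-helix factors, chondroitin sulphate matrix, cholesterol synthesis and stress genes had 0 called.

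Lists of other cell types gave little to measure. The matrix held 0 of the endothelial and 0 of the pericyte genes and 2 of the ependymal list. Of 8 neuron genes 4 were compared, 0 passed, and the median ratio was -0.16 and 0.05. Gad1, of interneurons, had means of 0.0533 against 0.0141 and 0.0916 against 0.0229 and was not compared. Its means were 0.0550 and 0.129 in cells high in both and 0.0369 and 0.226 in cells with neither gene. The gated cells were thus not the highest group in either library.

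Few genes differed between Olig2-high cells without and with Sox9. When the gated cells were compared with cells high in both genes, 0 of 6863 genes passed the fold in both libraries in either direction (0%). In single libraries 14 and 2 genes were higher (0.204% and 0.0291%) and 8 and 1 were lower (0.117% and 0.0146%). When cells high in both were compared with the same Sox9-high Olig2-negative cells, 23 of 7055 genes were higher (0.326%) and 97 lower (1.37%). This comparison shares its reference cells with the one above, so the values are only set side by side. The 22 genes had medians of 1.31 and 1.33 in it and the 93 genes of -1.26 and -1.503. Over the step from cells high in both to Sox9-negative cells, the same genes had medians of 0.16 and 0.09 and of -0.19 and -0.02. The groups differed in size, with 185 and 909 cells high in both and 99 and 44 Sox9-high Olig2-negative cells, and the part of group size in these counts was not tested.

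Rev3l and Apoe were near level between the 2 Olig2-high groups, and their small steps ran against the medians just given. Rev3l was at 4.57 and 6.06 normalised counts in cells high in both, beside 4.51 and 5.57 in the gated cells. Apoe was at 12.2 and 5.48, beside 14.46 and 6.09, and Slc4a4 at 1.07 and 1.26, beside 1.04 and 1.17. In the 87 and 21 cells with neither gene detected Rev3l was at 2.96 and 4.03, between the gated cells and the Sox9-high Olig2-negative cells. Against all other cells of their library, 0 of 6879 genes passed in both libraries (0%).

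**Figure D3:**
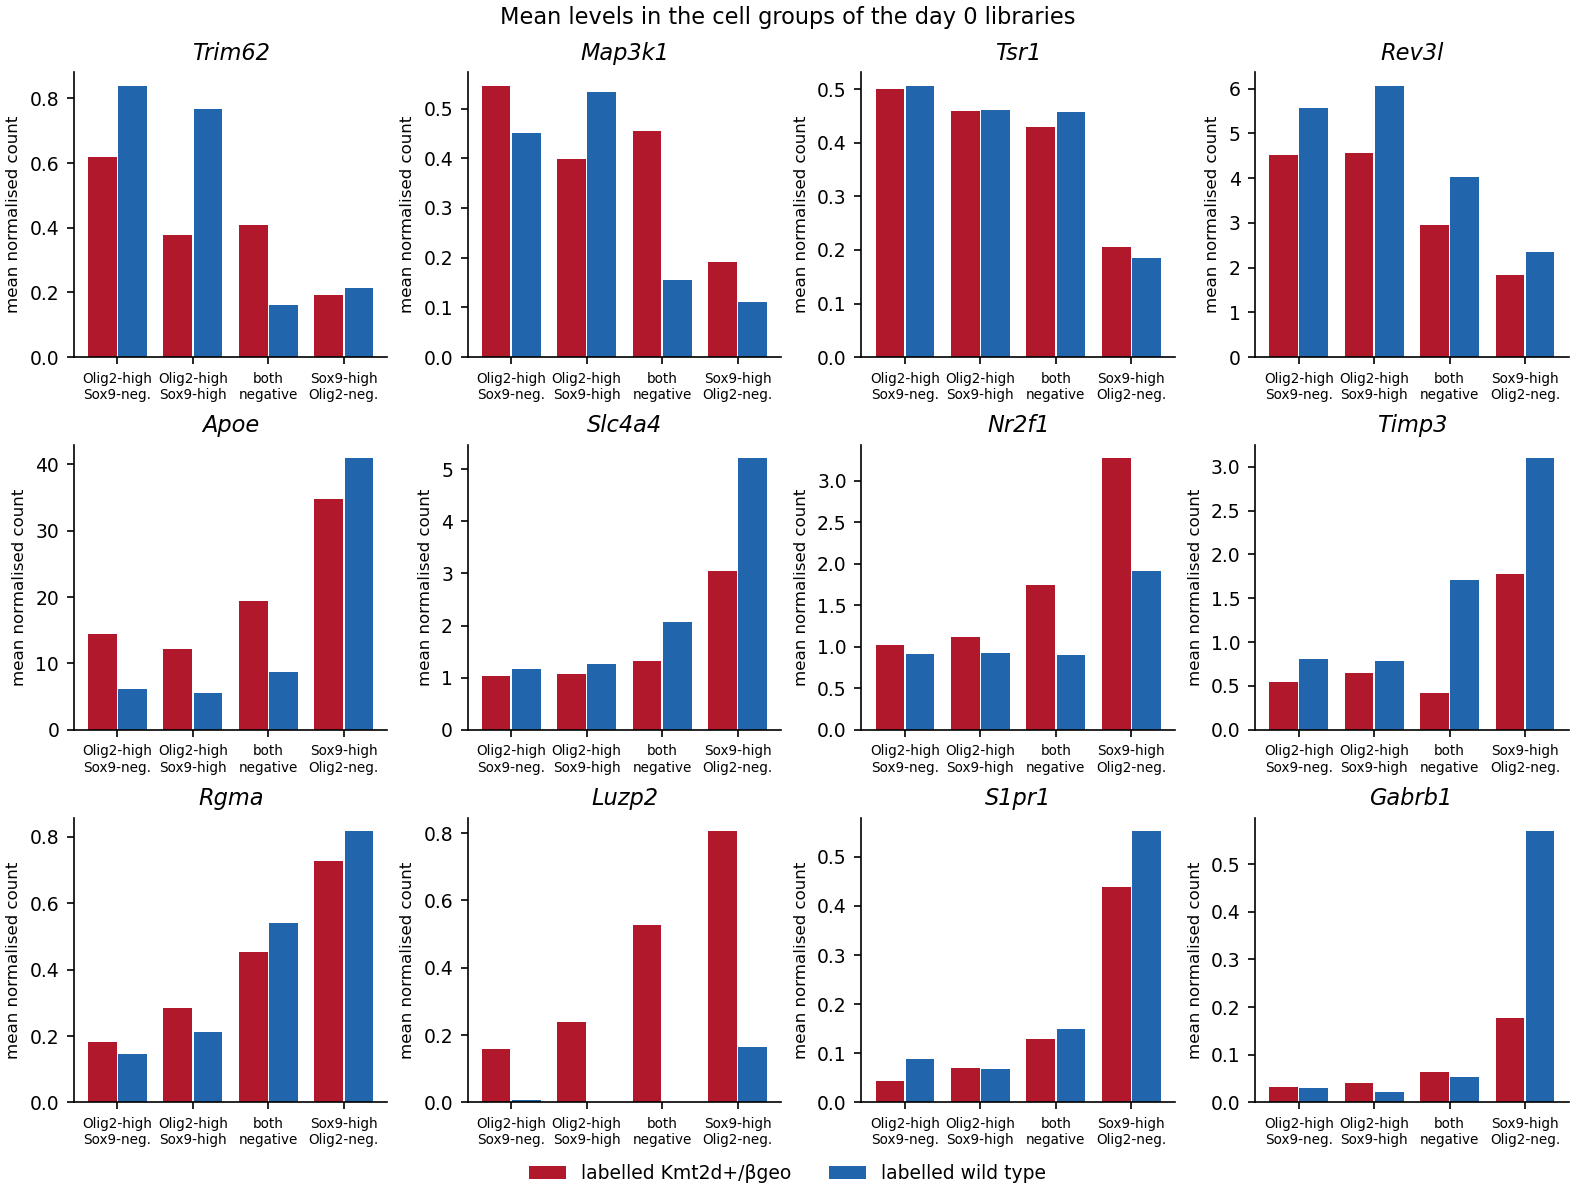
Mean normalised count of 12 genes (each axis starts at 0) in the 4 cell groups of the day 0 library labelled Kmt2d+/βgeo (red) and the one labelled wild type (blue), without error bars because each bar is 1 library. Rev3l is at 4.51 and 4.57 in Olig2-high cells without and with Sox9 of the Kmt2d+/βgeo-labelled library. The 12 genes were picked from those called between the gated and the Sox9-high Olig2-negative cells. The distance of the latter from the gated cells thus follows from that choice and is a description only.

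Among Sox9-negative cells, Rev3l and Trim62 were higher and Rgma, S1pr1, Slc4a4 and Nr2f1 lower in the highest bin of Olig2 than in the lowest, in both libraries. These genes were picked by the contrast of the gated with Olig2-negative cells, and the gated cells fill the upper 3 bins, so the series in part repeats that choice and is a description only. The lowest bin held 87 and 21 cells. Rev3l was at 2.96, 3.08, 3.73, 4.02, 3.99, 4.61 and 5.50 normalised counts over 7 rising bins of Olig2 in the Kmt2d+/βgeo-labelled library, and at 4.03, 4.30, 4.78, 4.71, 5.40, 5.43 and 6.17 in the wild-type-labelled library. S1pr1 went from 0.130 to 0.0241 and from 0.150 to 0.0642, Slc4a4 from 1.33 to 0.842 and from 2.08 to 0.748, and Nr2f1 from 1.75 to 0.584 and from 0.899 to 0.769. Nr2f1 in the wild-type-labelled library was uneven, at 1.10, 1.17, 1.23, 0.900 and 1.01 in the bins between. Top2a, not a called gene, went from 3.43 to 1.07 in the first library, and in the second from 0.584 in the 21 cells of the lowest bin to 3.24 in the next and 1.03 in the highest. Further called genes moved unevenly between the libraries. Slc25a25 went from 0.690 to 0.864 and from 0.842 to 0.732, Lsg1 from 0.583 to 0.791 and from 0.440 to 0.424, Timp3 from 0.421 to 0.651 and from 1.71 to 0.662, and Abca1 from 0.728 to 0.438 and from 0.972 to 0.954. Trim62 went from 0.408 to 0.765 and from 0.160 to 1.08 between the lowest and the highest bin, and Rgma from 0.452 to 0.167 and from 0.539 to 0.179. Apoe had no steady order, with 19.3 in the lowest and 14.5 in the highest bin, and 8.78 and 7.78. The gate cut through this series at a value of 3. Rev3l in cells just outside, with Olig2 from 2.5 to 3, was 4.02 and 4.71, and just inside, from 3 to 3.5, it was 3.99 and 5.40.

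Apoe and Tmsb4x varied widely among the gated cells. After thinning to 3000 UMIs, the ratio of variance to mean of the Apoe counts was 17.6 in 430 cells of the Kmt2d+/βgeo-labelled library and 7.40 in 401 of the wild-type-labelled library, against a median of 1.06 and 1.05 over 4044 genes. Sampling alone gives a ratio near 1. In the Sox9-high Olig2-negative cells the Apoe ratio was larger, 43.2 and 61.6. Tmsb4x, an actin-binding peptide, had 6.63 and 9.84, and Hbegf, a ligand of the EGF receptor, had 4.46 and 5.71. Top2a, a topoisomerase of dividing cells, had 4.40 and 3.17. In the Sox9-high Olig2-negative cells Tmsb4x had 8.28 and 6.77, Hbegf 5.98 and 7.35 and Top2a 3.24 and 6.80. A wide spread of these genes was thus not particular to the gated cells.

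A part of the gated cells held RNA of Top2a. After thinning to 3000 UMIs, a Top2a UMI was found in 24.7% (exact interval 20.6 to 29.0) of the gated cells of the Kmt2d+/βgeo-labelled library and in 27.9% (23.6 to 32.6) of those of the wild-type-labelled library. In Sox9-high Olig2-negative cells the shares were 29.9% (21.02 to 40.04) and 27.3% (14.96 to 42.8), so the intervals overlapped in each library. Over all day 0 cells they were 37.95% (36.5 to 39.4) and 34.2% (32.9 to 35.6), above those of the gate. In cells high in both genes they were 31.5% (24.9 to 38.8) and 24.6% (21.9 to 27.6), the second below that of the gate. A share under that of the library was thus not particular to the gate. For scale, 1.05% and 2.15% of all cells had a Top2a UMI at day 8. Unthinned, the gated cells had 41.2% and 41.4% and the Sox9-high Olig2-negative cells 40.4% and 38.6%. Smc4, a condensin subunit, gave 26.5% and 29.4% of gated cells against 37.1% and 40.9% of comparison cells after thinning. With Sox9 at 3 or more in the comparison cells, which left 13 and 12 of them, the log2 ratio of mean counts turned from -0.39 and -0.57 to 0.89 and 1.37 for Top2a and from -0.46 and -0.53 to 0.20 and 1.86 for Smc4. The Top2a ratio was -1.35 and -1.55 with Olig2 at 4 or more, and -1.20 and -0.49 with cells matched on UMIs. With any Sox9 allowed among the Olig2-high cells it was 0.14 and -0.22. The S phase list, with 19 genes compared and 0 called, had a median ratio of -0.45 in the Kmt2d+/βgeo-labelled library and 0.42 in the other. The G2M list, with 18 compared and 0 called, had -0.12 and -0.21. The S phase median thus had opposite signs in the 2 libraries.

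Within the gate, 54 of 7149 genes (0.755%) had a higher and 99 (1.38%) a lower mean in the Kmt2d+/βgeo-labelled library than in the one labelled wild type. In cells high in both, 1.12% and 1.54% of 7158 genes passed, and in Sox9-high Olig2-negative cells, with far fewer cells, 6.74% and 6.68% of 7563. The highest ratios in the gate were those of Luzp2 (4.72, from 80 and 1 UMIs, with an interval of 3.56 to 11.4), Kcnd2, a potassium channel subunit (3.02), Col11a1, a fibrillar collagen (2.95), Plxdc2 (2.88) and Maml3, a Notch coactivator (2.82). Col11a1 had means of 0.457 and 0.0593, and in cells high in both its ratio was 3.08. The lowest were Fbxo32, a ubiquitin ligase subunit (-2.74), Epb41l4a (-2.52), Frk, a tyrosine kinase (-2.45), Igfbp7 (-2.44) and 2210408F21Rik (-2.32). With 1 library each, genotype and culture cannot be told apart in these ratios. Apoe was higher in the gate of the Kmt2d+/βgeo-labelled library, with 14.46 and 6.09, and over the whole libraries its means were 14.1 against 5.88.

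The same gate was then read in the 6 later libraries, whose cells the day 0 choice did not use. The share of cells with the Olig2-high Sox9-negative profile was 12.7% and 13.2% after 2 days, 4.93% and 4.50% after 4 and 2.60% and 1.40% after 8, with the Kmt2d+/βgeo-labelled library first. Sox9-high Olig2-negative cells went from 2.29% and 0.906% at day 0 to 8.90% and 11.6%, 38.9% and 35.5%, and 54.3% and 66.8%. The depth of the later libraries differed, and the share depends on depth as described, so its part in this course was not tested.

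**Figure D4:**
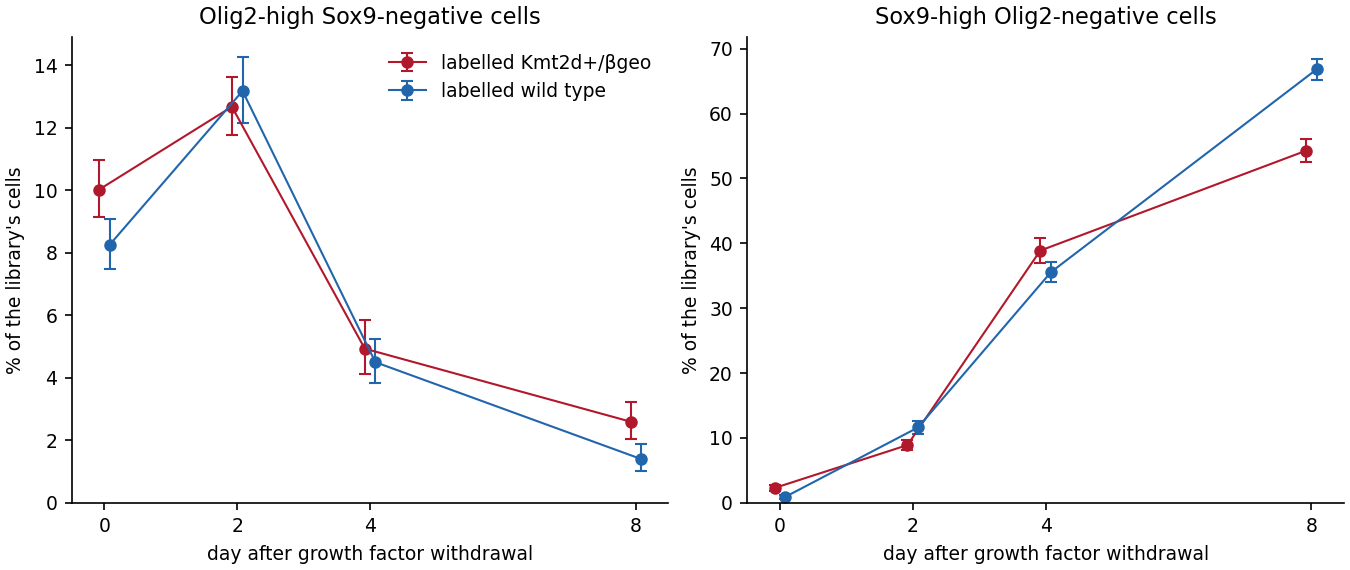
Percent of each library's cells (vertical, with exact 95% binomial intervals for counting error) with the Olig2-high Sox9-negative profile (left) and the Sox9-high Olig2-negative profile (right) by day (horizontal), for libraries labelled Kmt2d+/βgeo (red) and wild type (blue). The first profile is at 2.60% and 1.40% by day 8, while the second reaches 54.3% and 66.8%.

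Of the 22 genes higher at day 0, 17 had a ratio above 0 in all 6 later libraries, as did 29.5% of the genes compared at day 0. Of the 93 lower genes 52 had a ratio below 0 in all 6, against 16.6% of genes. Without day 4 the counts were 17 and 53 in 4 libraries, against 33% and 18.5%. Past the fold in all 6 later libraries were 8 of the 22 (1.54% of genes were), and the same 8 in all 4 of days 2 and 8 (1.66% of genes), namely Cdon, Dok7, Map3k1, Rap1gap, Rev3l, Rnf122, Trim62 and Zbed4. For the lower genes it was 22 of 93 in all 6 (1.94% of genes) and 26 in the 4 (2.15%), with both counts including Apoe, Slc4a4, Timp3, Agt, Hopx, S1pr1, Gabrb1, Slc7a11, Shisa9 and Daam2. Of the ribosome group, Nop2, Tsr1, Lsg1, Dimt1 and Pinx1 were not among the 8 higher genes. In the 6 later libraries the median ratio over all genes compared was 0.07 to 0.19. Gated cells were shallower than comparison cells there, with medians of 6118 against 7926 and 6173 against 7674 UMIs at day 2. At day 4 these were 6548 against 9256 and 5994 against 8408, and at day 8 2786 against 3916 and 5100 against 7094. The comparison cells also grew to 1609 and 2146 cells by day 8. The part of depth and of these changed groups in the later ratios was not tested.

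Ranges below run over the 6 later libraries, and leaving out day 4 gave the same range unless another is printed. Rev3l had a larger ratio in each later library than at day 0, from 2.52 to 3.17. Trim62 ranged from 1.13 to 2.16 and Map3k1 from 1.69 to 3.21. Dok7, near the limit of counting at day 0, ranged from 3.28 to 4.19, and Cdon from 2.17 to 4.84 (4.15 to 4.84 without day 4). Among oligodendrocyte lineage genes, Bcas1 ranged from 1.76 to 4.30 and Lhfpl3 from 3.37 to 6.48, beside 0.95 and 2.18 and 1.04 and 0.87 at day 0. Of the other 6 compared, Tnr ranged from 0.65 to 7.94, Epn2 from 0.59 to 2.24, Cnp from -0.19 to 1.73 (-0.19 to 0.62 without day 4), Itpr2 from -1.02 to 1.36, Serpine2 from -0.67 to 0.39 and Tcf7l2 from -1.04 to -0.30. Bcas1 and Lhfpl3 missed the fold in 1 day 0 library and passed it in all 6 later ones, whereas Tcf7l2 was below 0 in all 6. Slc4a4 ranged from -3.42 to -1.93 (-3.34 to -1.93 without day 4) and Apoe from -2.77 to -1.17.

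Other day 0 genes did not hold. Mcu, the mitochondrial calcium uniporter, was higher at day 0 with ratios of 1.12 and 1.29 and below 0 in all 6 later libraries, from -1.60 to -0.57 (-1.60 to -0.92 without day 4). Nop2 ranged from -1.45 to 0.76 and Gm14305 from -0.88 to 0.19 (-0.88 to 0.14 without day 4). Il6ra, the interleukin 6 receptor, was lower at day 0 with -3.12 and -2.68 and above 0 in the 3 later libraries where it could be compared, from 0.24 to 1.16. Cdh11, a cadherin, had the day 0 direction at day 2 and the opposite at days 4 and 8, over a range of -1.19 to 2.03.

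**Figure D5:**
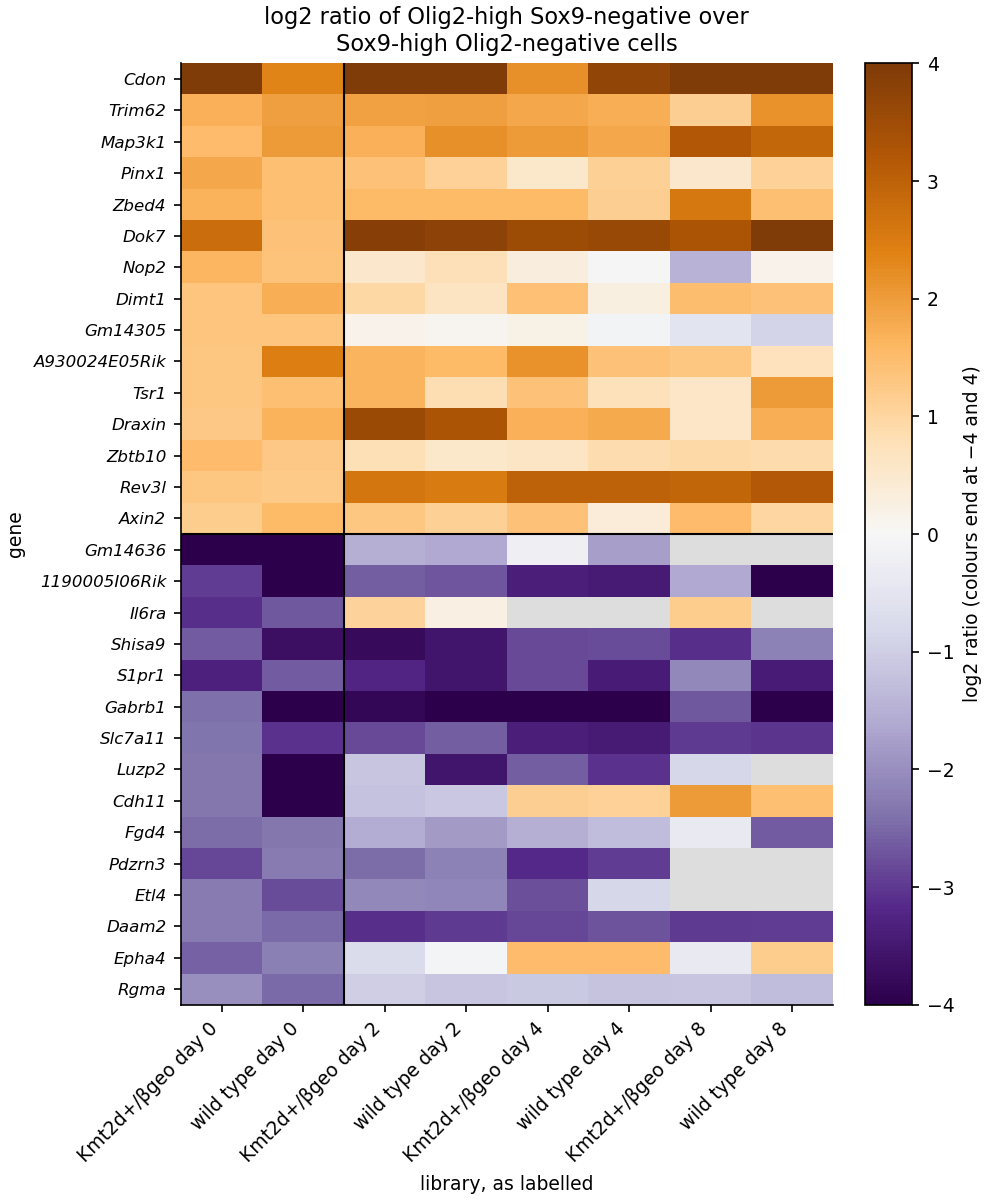
Log2 ratio of Olig2-high Sox9-negative over Sox9-high Olig2-negative cells (colour, ending at -4 and 4, grey where no ratio could be formed) for the first 15 genes higher (above the line) and lower (below it) at day 0, in each of the 8 libraries. Cdon, Trim62, Map3k1, Dok7 and Rev3l are above 1 and S1pr1, Gabrb1, Shisa9 and Daam2 below -1 in every column, whereas Il6ra, Cdh11 and Nop2 change sign.

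Few gated cells held Top2a RNA after day 0, with day 8 of the wild-type-labelled library as the exception. A Top2a UMI was found in 1.29% and 0.741% of them on day 2 and in 1.60% and 3.16% on day 4 after thinning. Over all cells of these libraries it was found in 1.51% and 1.44% on day 2 and in 2.45% and 2.05% on day 4. On day 8 it was in 1 of 35 gated cells of the Kmt2d+/βgeo-labelled library, 2.86% (0.0723 to 14.9). In the wild-type-labelled library it was in 9 of 45 gated cells (exact interval 9.58% to 34.6%), against 2.15% of all cells of that library. There 8 of 38 cells high in both (21.1%) held one too. The day 8 Kmt2d+/βgeo-labelled library was shallow and lost 42 of its 77 gated cells to thinning.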

How the data were processed

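Droplet 3′ RNA libraries were quantified by the authors with alevin (Salmon 1.3.0), and spliced counts were taken as expression. Builds and versions are from the submitters' processing notes (GRCm38, Seurat 3.2.2). The authors removed outlier cells, doublet scores included, so no doublet caller was run here. The deposited matrix holds log2 values of 9140 genes in 30408 cells. The deposited cell table holds estimated counts (total UMIs) per cell, over more genes than the matrix. Gene positions came from GENCODE M21, where 9137 gene IDs were found.

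The log2 values were turned back to normalised counts (2 to the value, minus 1), and the commonest value of a cell was read as 1 UMI. Within 0.01 of a whole UMI lay 86.8% of nonzero values. A gene was compared at a mean of at least 0.1 and called at an absolute log2 ratio of 1 in both day 0 libraries. Group totals under 0.5 UMI counted as 0 and were set to 3 UMIs over the group. Intervals for ratios are exact conditional 95% intervals of summed UMIs, and for shares Clopper-Pearson. With 1 library per genotype and day there was no test. Cells were thinned to 3000 UMIs for shares.

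The cells, thresholds and gene lists were chosen with earlier results of these data known. The text names the first 15 genes called in each direction by the smaller ratio, up to 4 genes per list by level, and 5 per genotype direction. Lsg1, Slc25a25, Rap1gap, Mcu, Rnf122, Timp3, Abca1, Agt, Hopx, Nr2f1, Ptch1, Foxp2, Numbl, Fgfr2, Bcas1, Lhfpl3, Tmsb4x, Hbegf, Hells, Tacc3, Ckap2 and any other gene outside that rule were chosen after their values were seen. The scripts were tested on simulated data. Python 3.11.15, numpy 2.4.6, scipy 1.17.1, pandas 2.3.3, pyarrow 21.0.0 and matplotlib 3.10.9 were used. One listed gene is not reported here.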

Additional observations from a re-analysis of the deposited data

Results flagged for a closer look

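Of 340 named or listed genes checked, 3 had ratios of gated over Sox9-high Olig2-negative cells with opposite signs in the 2 day 0 libraries and counting intervals on opposite sides of 0. The share of such genes over all genes compared is not given, so 3 of 340 cannot be read as many or few. The difference between the libraries was not tested, as each is 1 sample. Hells, a chromatin remodeller of dividing cells, had a log2 ratio of -0.80 in the Kmt2d+/βgeo-labelled library and 1.72 in the wild-type-labelled library, where the comparison cells held 4 UMIs. Tacc3, a spindle protein, had 1.21 and -0.42, and Ckap2, another spindle protein, had 0.72 and -0.65.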

How the results depend on the processing

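The counts of genes depended on the settings, and the causes were not tested. The 22 higher and 93 lower genes became 0 and 0 with a difference of mean log2 values. After thinning to 3000 UMIs they were 50 and 140 (11 and 48 shared). They became 5 and 17 at a minimum mean of 0.5, and 41 and 205 at 0.01. With Olig2 at 4 or more they were 49 and 171 (17 and 69 shared), and with Sox9 at 3 or more in the comparison cells, which left 13 and 12 of them, 77 and 349 (2 and 55 shared). Higher genes numbered 57 in cells with no Top2a UMI (15 shared) and 41 in cells of at least 6000 UMIs (13 shared), a setting chosen after seeing the data. List genes called fell from 1 higher and 8 lower to 0 and 0 with mean log2 values. Over all settings 155 of 1974 gene ratios changed sign, 40 of them of 166 with Sox9 at 3 or more in the comparison cells, where Map3k1 in the Kmt2d+/βgeo-labelled library went to -0.30 and Top2a and Smc4 turned in both libraries. Of 72 list medians 5 changed sign, among them the neuron median of the Kmt2d+/βgeo-labelled library (0.033 thinned) and the Notch (0.30 thinned) and WNT medians (0.51 thinned) of the other. The gate took 18.7% and 12.7% of cells at Olig2 of 2, 2.08% and 1.69% at 4, 20.03% and 21.1% after thinning, and 5.54% and 5.15% of cells at or above median depth. A Top2a UMI was in 34.2% and 33.2% of gated cells at 5000 UMIs and 41.2% and 41.4% unthinned, and in 40.4% of comparison cells of the Kmt2d+/βgeo-labelled library unthinned. Genotype counts in the gate, 54 and 99, became 1 and 2 with mean log2 values, 119 and 265 thinned, and 11 and 26 at a minimum mean of 0.5. The oligodendrocyte lineage median was 0.093 and 0.73 thinned. No paired test across libraries was run, and each ratio of gated over comparison cells was taken within 1 library.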
